A study of Mus musculus with 2 samples.

Results

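Granule-gene neutrophils are the S100a8- and S100a9-rich cells of this series that also carried transcripts of neutrophil granule and secretory genes, represented by Ngp, Camp and Retnlg. They were selected on measured values. A cell was taken where it had at least 10 unique molecular identifiers (UMIs, each standing for a captured RNA molecule) of S100a8 and S100a9 together, at least 1 UMI of Csf3r, none of Cd3d, Cd3e, Cd3g or Cd79a, and at least 3 UMIs of Ngp, Camp and Retnlg together. That gave 872 cells of 25454 that passed the quality filters, 518 of 13451 in the LYZKL library and 354 of 12003 in the WTKL library. The cells that met the other conditions but had fewer than 3 UMIs of Ngp, Camp and Retnlg numbered 351 in LYZKL and 414 in WTKL. They are called the other gate cells below, and both kinds together are called the neutrophil gate.

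Immune cells of mouse lung tumours were sequenced in 2 droplet single-cell RNA libraries, 1 per group. LYZKL came from KrasLSL-G12D/+Lkb1fl/fl hosts that were lethally irradiated and received bone marrow of Tmem173fl/fl;Lyz2-Cre donors. WTKL came from hosts of the same genotype with marrow of Tmem173fl/fl donors. Tumours in both were started by intranasal Ad-Cre, an adenovirus carrying Cre recombinase, and lungs were taken 8 weeks later. Tamoxifen stands in the treatment label of WTKL and is missing from that of LYZKL. Lyz2-Cre is active in the myeloid lineage, which includes neutrophils as well as macrophages, and Tmem173 codes for STING, the adaptor of cytosolic DNA sensing. The number and age of the mice behind each library, and the share of host blood cells that survived irradiation, are not given in the sources used here. Both libraries were sorted for CD4pos and CD8pos T cells, so the neutrophils described here are those that passed that sort, and their share of the cells can be set by the sort.

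With 1 library per group there is no test between groups and no p-value. Intervals are 95% intervals of counting error only and do not cover the spread between mice, sorts or libraries. Intervals of levels and of CPM ratios treat each UMI as independent and do not cover the spread between cells either. They are too narrow for genes such as Ngp, Camp and Ltf, whose UMIs lay mostly in few cells. Levels are CPM, the UMIs of a gene summed over a set of cells per 1000000 UMIs of that set. The 3' tags give about the same number of UMIs per RNA molecule whatever its length. A gene was tested for size where it had at least 30 UMIs over both libraries, and the words rose and fell are used where LYZKL and WTKL differed by at least 1.5-fold. In such sums, fewer cells with a transcript and less transcript per cell cannot be told apart.

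A neutrophil makes its granules in sequence as it matures in the bone marrow. Azurophil (primary) granules, with Mpo, Elane, Prtn3 and Ctsg, are made by promyelocytes. Specific (secondary) granules, with Ltf, Camp, Ngp, Lcn2 and Chil3, are made by myelocytes and metamyelocytes under the transcription factor C/EBP-epsilon. Gelatinase (tertiary) granules, with Mmp9, follow, and the mature cell carries Cxcr2, the chemokine receptor that draws it out of the marrow. Transcripts of granule proteins decline as the cell matures while the proteins stay in the granules. Retnlg, a resistin-like secreted protein of mouse neutrophils, is by contrast abundant in mature cells. In tumours, neutrophils can take on further states marked by chemokines such as Ccl3, the checkpoint ligand Cd274 and Nos2.

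The sequences just before the start sites of Ngp, Camp, Ltf and Retnlg are shown because a large part of the UMIs of the first 3 genes lay in the same few cells, whereas Retnlg was found in nearly every cell. Each line gives the 150 bases before the annotated start, 5' to 3' on the strand of the gene, from RefSeq on GRCm38.p6. All 4 genes asked for were matched by symbol. The Ngp window is chr9:110419658-110419807 (+ strand), the Camp window chr9:109849457-109849606 (- strand), the Ltf window chr9:111019142-111019291 (+ strand) and the Retnlg window chr16:48872458-48872607 (+ strand). Capitals mark matches to TTNNGNAA on either strand, a simplified form of the site bound by the C/EBP factors of the granulocyte lineage.
Ngp: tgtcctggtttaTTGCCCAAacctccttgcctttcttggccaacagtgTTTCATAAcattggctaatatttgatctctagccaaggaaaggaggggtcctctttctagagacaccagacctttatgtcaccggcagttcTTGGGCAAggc
Camp: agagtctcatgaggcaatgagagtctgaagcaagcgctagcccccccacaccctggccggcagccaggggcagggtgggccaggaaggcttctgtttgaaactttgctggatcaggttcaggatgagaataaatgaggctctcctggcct
Ltf: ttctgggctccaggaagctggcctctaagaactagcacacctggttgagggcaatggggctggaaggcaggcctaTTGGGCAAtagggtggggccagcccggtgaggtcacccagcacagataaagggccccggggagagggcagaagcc
Retnlg: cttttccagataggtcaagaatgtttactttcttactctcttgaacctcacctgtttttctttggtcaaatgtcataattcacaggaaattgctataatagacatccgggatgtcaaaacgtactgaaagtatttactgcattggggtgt
Ngp had 3 such matches, which begin 138, 102 and 11 bases before its start, Ltf had 1, at 75 bases, and Camp and Retnlg had 0. Of 32851 RefSeq promoters, 22.7% held at least 1 match in a window of this length, so a single match is common. The letters CCAAT, on either strand, occurred once each before Ngp, Ltf and Retnlg and were held by 24.5% of all windows. None of the 4 windows held GAGGAA, the core bound by the factor PU.1, which 14.5% of all windows held. The CCAAT matches do not overlap the capitals in Ngp, and the Ltf match shares its first bases with CCAAT read on the other strand. These matches describe letters and show neither binding nor its absence.

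The label names Ngp and Camp, but Retnlg was the gene that brought cells in. Of the 518 LYZKL cells, 513 would have passed by Retnlg alone, and of the 354 WTKL cells 351. Retnlg had a median of 23.5 UMIs per cell in LYZKL and 18 in WTKL. Ngp was at 0 in the median cell of both libraries, with a highest cell of 1031 UMIs in LYZKL and 359 in WTKL. Camp was found in 27 LYZKL cells and 18 WTKL cells. The cells are therefore best read as Retnlg-positive neutrophils, of which a minority had Ngp or Camp. Their identity as neutrophils was checked on genes outside the rule. The 9 neutrophil markers that the rule did not use (Ly6g, Cxcr2, Mmp8, Mmp9, Ltf, Lcn2, Cd177, Itgam and Trem1) were all detected in both libraries and summed to 6959 CPM in LYZKL and 6651 CPM in WTKL.

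Genes of other cell types were low in the summed UMIs. T cell markers summed to 42.9 CPM in LYZKL and 80.8 CPM in WTKL, with Cd3d, Cd3e and Cd3g at 0 by the rule. Counted by cell, a UMI of the T cell receptor gene Trac was found in 7.53% of LYZKL and 10.7% of WTKL granule-gene neutrophils. All 5 eosinophil, basophil or mast cell markers and all 3 erythroid markers were at 0. Markers of B cells, dendritic cells, platelets and epithelium summed to at most 6.36 CPM per list in either library, and NK cell markers to at most 15.9 CPM. The 10 macrophage or monocyte markers summed to 214 CPM in LYZKL and 169 CPM in WTKL, against 1122 and 801 CPM in the other gate cells of LYZKL and WTKL. The complement genes C1qa, C1qb and C1qc, which define tissue macrophages, had between 2 and 6 UMIs each in either library. The plasma cell genes Igkc (88.4 CPM in LYZKL, 244 in WTKL) and Jchain (19.7 and 43.9 CPM) were lower in LYZKL. The other gate cells had nearly the same Igkc levels, 88.0 CPM in LYZKL and 246 in WTKL.

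Sequencing depth per cell was close in the libraries and somewhat higher in LYZKL. Granule-gene neutrophils had a median of 4599 UMIs and 1366.5 genes in LYZKL and 4056 UMIs and 1280.5 genes in WTKL. Their UMIs summed to 2590349 in LYZKL and 1572623 in WTKL, of 93408198 and 76991838 UMIs in all kept cells. The labels state 7202 cells for LYZKL and 6609 for WTKL, whereas the matrices hold 13607 and 12204 barcodes, before any filter applied here. The libraries share 100 barcodes, of which 3 fell among granule-gene neutrophils in LYZKL and 1 in WTKL.

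Granule-gene neutrophils made up more of the LYZKL library than of the WTKL library, while the neutrophil gate as a whole did not. They were 3.85% of kept cells in LYZKL (Clopper-Pearson interval 3.53% to 4.19%) and 2.95% in WTKL (2.65% to 3.27%), a ratio of 1.31 (Katz interval 1.14 to 1.49). The neutrophil gate was 6.46% of LYZKL cells and 6.40% of WTKL cells, a ratio of 1.01 (0.919 to 1.11). Within the gate, 59.6% of LYZKL cells and 46.1% of WTKL cells had at least 3 UMIs of the granule genes, a ratio of 1.29 (1.18 to 1.42). After each cell was thinned to 1500 UMIs and the rule applied again, the shares of the gate were 59.1% in LYZKL and 42.4% in WTKL, so the gap was no smaller at equal depth.

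Neutrophil transcripts were also found in T cells of both libraries, in shares that differed by gene. Free RNA and doublets of a T cell with a neutrophil cannot be told apart in these shares. Among T cells, defined by at least 3 UMIs of Cd3d, Cd3e and Cd3g, 8.71% in LYZKL and 6.85% in WTKL had a Retnlg UMI, at median depths of 6126 and 5331 UMIs. At least 3 UMIs of Ngp, Camp and Retnlg were found in 1.55% of LYZKL T cells and 0.984% of WTKL T cells. These 2 shares were higher in LYZKL, while the shares of T cells with an Ngp UMI (1.58% in LYZKL, 1.60% in WTKL) or a Camp UMI (0.867% and 1.24%) were not. The T cell share with at least 3 UMIs of these genes was far under that of the neutrophil gate, 59.6% in LYZKL and 46.1% in WTKL. Among granule-gene neutrophils, 37.5% in LYZKL and 23.7% in WTKL had an Ngp UMI, and 5.21% and 5.08% a Camp UMI. The distance from the T cells was thus much smaller for Camp. The part of free RNA or of doublets in the difference between the libraries was not tested.

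The number of granule UMIs per gate cell ran without a gap from 0 upwards. In LYZKL 248 gate cells (28.5%) had 0 granule UMIs and in WTKL 315 (41.0%). At the other end, 96 LYZKL cells (11.05%) and 43 WTKL cells (5.60%) had 100 or more. Just inside the threshold, at 3 to 4 UMIs, were 51 LYZKL and 40 WTKL cells, and just outside, at 1 to 2 UMIs, were 103 and 99. The S100a8 level of the cells just inside was 26645 CPM in LYZKL and 28102 CPM in WTKL, and of those just outside 15124 and 15132 CPM. Cxcr2 was at 370 CPM in LYZKL and 510 CPM in WTKL just inside, against 256 and 334 CPM just outside. Ccl3, a chemokine of tumour neutrophils, was at 5025 CPM in LYZKL and 2617 CPM in WTKL just inside and at 4169 and 2405 CPM just outside. S100a8 and Cxcr2 were higher just inside than just outside in both libraries, but Mmp8 was lower. Mmp8 was at 89.1 CPM in LYZKL and 68.9 CPM in WTKL just inside, against 165 and 133 CPM just outside. The threshold divides a continuous range.

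**Figure D1:**
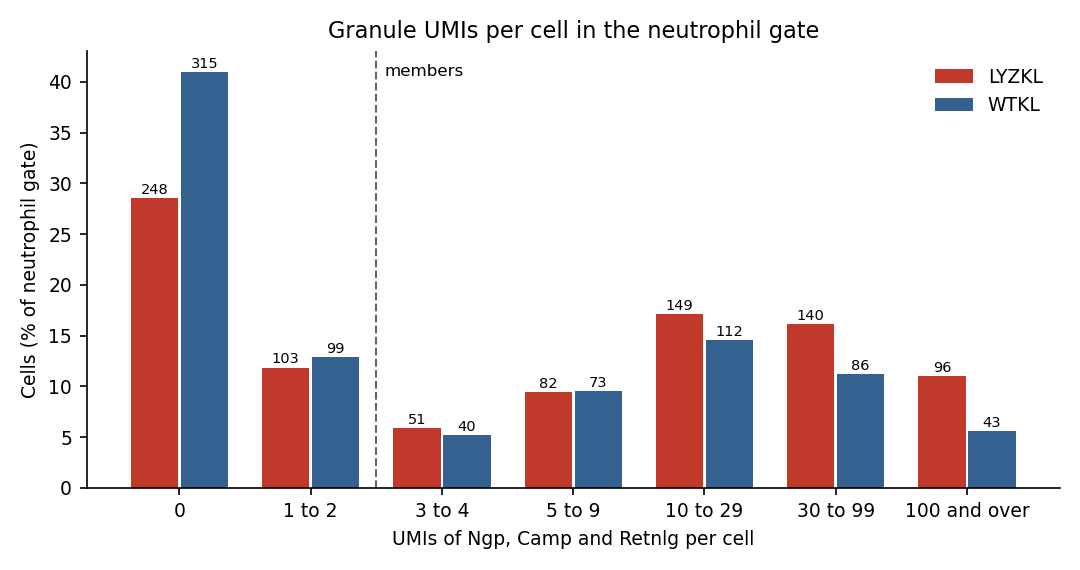
Share of neutrophil gate cells (y axis, percent, linear from 0) in each class of summed Ngp, Camp and Retnlg UMIs per cell (x axis), LYZKL bars left of WTKL bars, with the number of cells above each bar; granule-gene neutrophils (members) lie right of the dashed line at 3 UMIs. Classes from 10 UMIs upwards held more of the gate in LYZKL, and the class of 0 UMIs held 28.5% in LYZKL and 41.0% in WTKL.

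Ngp, a cathelicidin-related protein of specific granules, was both higher and more widespread in LYZKL. Summed over granule-gene neutrophils it had 4052 UMIs in LYZKL and 1310 in WTKL, or 1564 CPM (Poisson interval 1516 to 1613) against 833 CPM (789 to 879), a log2 ratio of 0.91. At least 1 Ngp UMI was found in 194 of 518 LYZKL cells (37.5%) and 84 of 354 WTKL cells (23.7%). After thinning to 1500 UMIs per cell, which left out 4 LYZKL and 5 WTKL cells, the shares were 24.3% and 12.6%. Among thinned T cells the share was 0.442% in LYZKL and 0.490% in WTKL. The share of granule-gene neutrophils with at least 3 UMIs of Ngp and Camp was 20.7% in LYZKL (107 cells, 17.2% to 24.4%) and 11.02% in WTKL (39 cells, 7.95% to 14.8%), a ratio of 1.87 (1.33 to 2.64). As Ngp and Camp belong to the rule, these values are a description.

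A very small number of cells held most of the Ngp, Camp and Ltf transcripts. The same cell was highest for Ngp, Camp and Ltf in each library. In LYZKL that cell had 1031 Ngp, 384 Camp and 180 Ltf UMIs but 16 Retnlg UMIs, of 19956 UMIs in all. In WTKL it had 359 Ngp, 252 Camp, 52 Ltf and 49 Retnlg UMIs of 9075. These cells alone held 25.4% of Ngp, 56.3% of Camp and 63.8% of Ltf UMIs in LYZKL, and 27.4%, 83.4% and 67.5% in WTKL. Cells with 100 or more Ngp UMIs numbered 8 in LYZKL and 3 in WTKL. Ngp, Camp and Ltf were found together in 9 LYZKL and 5 WTKL cells, and of the cells with Camp 70.4% in LYZKL and 50% in WTKL also had Ngp. For comparison, 50% of the Ngp UMIs lay in 6 LYZKL cells and 3 WTKL cells, 50% of the Lcn2 UMIs in 68 and 51, and 50% of the Retnlg UMIs in 69 and 47.

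**Figure D2:**
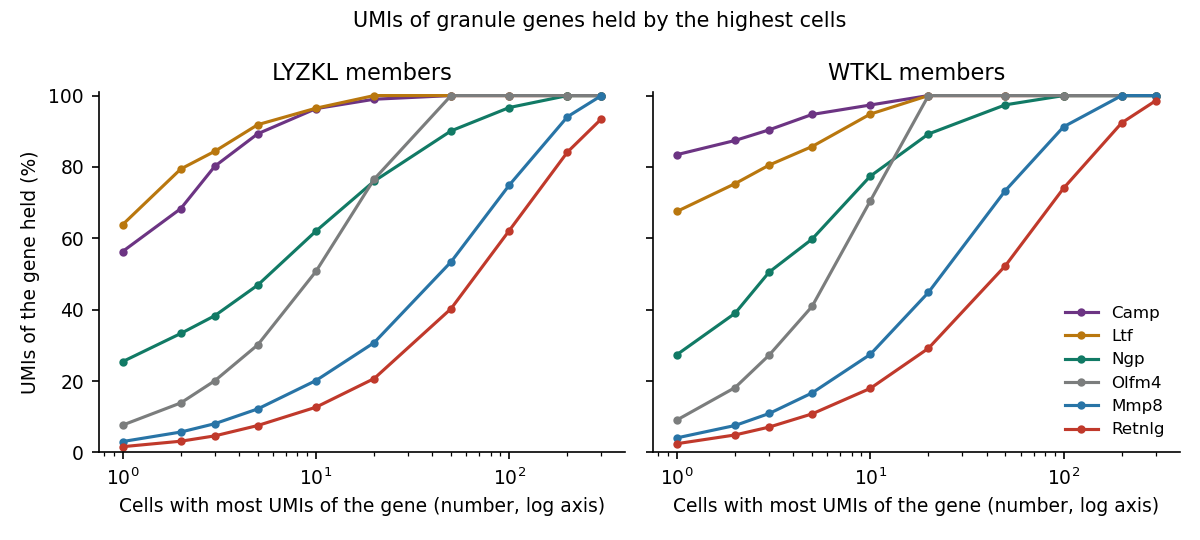
Cumulative share of a gene's UMIs (y axis, percent) held by the granule-gene neutrophils (members) with the most UMIs of that gene (x axis, number of cells, log axis), a line per gene, LYZKL in the left panel and WTKL in the right. The 10 highest cells held 62.0% of Ngp UMIs in LYZKL and 77.4% in WTKL, but 12.7% and 17.9% of Retnlg UMIs.

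Camp and Ltf levels therefore rest on few cells, and Ngp less so. Camp, the cathelicidin antimicrobial peptide, was at 263 CPM in LYZKL and 192 CPM in WTKL (log2 ratio 0.46), and without the highest cell of each library at 115 and 31.8 CPM (log2 ratio 1.86). Ltf, the iron-binding lactoferrin, was at 109 CPM in LYZKL and 49.0 CPM in WTKL (log2 ratio 1.15, interval 0.78 to 1.54), and without those cells at 39.4 and 15.9 CPM. Ngp without them was at 1166 CPM in LYZKL and 605 CPM in WTKL (log2 ratio 0.95). The shares of cells with a Camp UMI (5.21% in LYZKL and 5.08% in WTKL) or an Ltf UMI (3.86% and 3.95%) were nearly equal. In T cells the Camp share was 0.867% in LYZKL and 1.24% in WTKL, and the Ltf share 0.805% and 0.674%.

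Transcripts of the earliest granules were almost absent. Mpo, Elane and Ctsg, the azurophil enzymes that mark promyelocytes, had 0 UMIs in both libraries. Prtn3 had 11 UMIs in LYZKL and 12 in WTKL, Prss57 3 and 4, and Ms4a3 1 and 0. The ficolin gene Fcnb was found in 1 LYZKL cell and 0 WTKL cells, and 0 of 354 cells allows a share of up to 1.04% by the exact interval. Cebpe, the factor of specific granule genes, had 15 UMIs in LYZKL and 9 in WTKL. Of the cycling genes, Mki67 had 17 UMIs in LYZKL and 7 in WTKL, and Top2a 11 and 2.

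Across the specific granule list most genes were higher in LYZKL. Of 18 genes of the list with enough UMIs, 17 were higher and 1 lower in LYZKL, and 6 rose by at least 1.5-fold and 0 fell. Over all 6276 genes tested, 54.1% were higher in LYZKL at any size, 7.7% rose (483 genes) and 4.84% fell (304 genes). The counting interval excluded 0 for only 205 of the 483 and 146 of the 304. The median log2 ratio was 0.22 over the list and 0.03 over all genes. The 6 that rose were Ltf, Olfm4, Chil3, Itgb2l, Serpinb1a and Abca13. Abca13 rose on few UMIs, 39 in LYZKL and 14 in WTKL, and its log2 interval of -0.15 to 1.75 includes 0. Itgb2l had 70 and 26 UMIs, with an interval of 0.04 to 1.42. The list held this direction under each scaling tried (17 of 18). Without the highest cell of each gene, 18 of 18 were higher and 7 rose. When the comparison was held to cells with at least 3 UMIs of Ngp and Camp, 9 of 17 were higher, 2 rose and the median was 0.02. In cells with no Ngp or Camp, 9 of 14 were higher, 2 rose and 1 fell. Within either kind of cell the list was thus closer to even than over all granule-gene neutrophils, with fewer UMIs behind each gene.

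Olfm4, an olfactomedin of a subset of specific granules, had the largest rise among the genes named for the comparison. It was at 80.7 CPM in LYZKL (70.1 to 92.4) and 28.0 CPM in WTKL (20.3 to 37.6), a log2 ratio of 1.53 (1.05 to 2.03). An Olfm4 UMI was found in 48 LYZKL cells (9.27%) and 20 WTKL cells (5.65%), and in T cells the shares were 0.387% and 0.199%. Olfm4 was higher in LYZKL in 3 of the 4 classes of Retnlg level described below. Chil3, a chitinase-like protein, was at 288 CPM in LYZKL and 172 CPM in WTKL (log2 ratio 0.74). A single WTKL cell held 87 of its 271 UMIs, and without the highest cells the log2 ratio was 1.19. Cells with at least 3 UMIs of Ngp and Camp had 327 CPM of Chil3 in LYZKL and 163 CPM in WTKL, against 303 and 179 CPM in cells with none. Chil3 was more abundant in the other gate cells, at 2095 CPM in LYZKL and 1326 CPM in WTKL (log2 ratio 0.66). Its thinned share of cells was 19.7% in LYZKL and 10.3% in WTKL, against 6.83% and 5.39% of T cells. Serpinb1a, an inhibitor of neutrophil serine proteases, was at 63.3 CPM in LYZKL and 36.2 CPM in WTKL (log2 ratio 0.80). Lcn2, the siderophore-binding lipocalin, had a much broader spread over cells and a log2 ratio of 0.15, with 3099 CPM in LYZKL and 2784 CPM in WTKL. Mmp8, the neutrophil collagenase, was at 709 CPM in LYZKL and 530 CPM in WTKL (log2 ratio 0.42), under the 1.5-fold size.

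Genes of later granules and of the mature cell did not share that shift. Of 10 gelatinase granule genes 4 were higher and 6 lower in LYZKL, and 0 passed 1.5-fold in either direction. Of 16 mature neutrophil genes 7 were higher, 9 lower and 0 passed. Ly6g, the surface antigen used to identify mouse neutrophils, was at 159 CPM in LYZKL and 169 CPM in WTKL (log2 ratio -0.08, interval -0.31 to 0.14). Cxcr2 was at 612 CPM in LYZKL and 624 CPM in WTKL, and Mmp9, the gelatinase itself, at 547 and 633 CPM (log2 ratio -0.21). Retnlg was at 10793 CPM in LYZKL and 8745 CPM in WTKL (log2 ratio 0.30). S100a8 was at 71714 CPM in LYZKL and 63683 CPM in WTKL, S100a9 at 71000 and 66019 CPM, and Csf3r, the G-CSF receptor, at 982 and 1149 CPM, all 3 used by the rule. The S100 and annexin list had 3 of 9 genes higher and 0 past the size, and the NADPH oxidase list, the enzyme of the respiratory burst, 1 of 6 higher and 0 past.

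**Figure D3:**
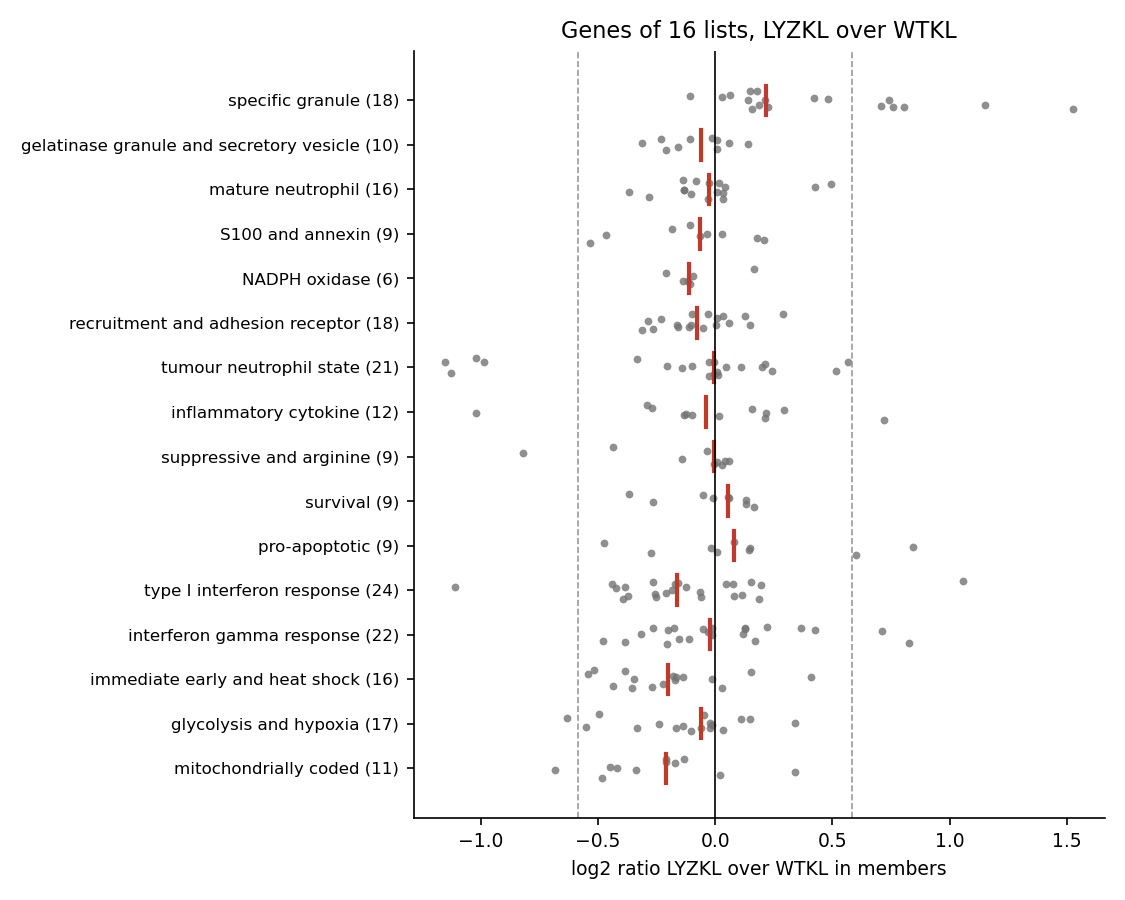
Log2 ratio of LYZKL over WTKL in granule-gene neutrophils (x axis) for the genes with enough UMIs in 16 of the lists (y axis, number of genes in parentheses), a grey point per gene and a red bar at the median, with dashed lines at 1.5-fold in either direction. In the specific granule list 17 of 18 genes lie above 0, against 4 of 10 in the gelatinase granule list and 7 of 16 in the mature neutrophil list.

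Cells with more Retnlg had more Mmp8 and Ly6g and less Ccl3 and Cd274, in both libraries. The cells were divided by Retnlg UMIs per 10000 UMIs, below 20 (109 LYZKL and 90 WTKL cells), 20 to 60 (153 and 111), 60 to 180 (170 and 114) and 180 or more (86 and 39). The top class held 16.6% of LYZKL and 11.02% of WTKL granule-gene neutrophils. Median depth was also higher in the top class, 5714 UMIs in LYZKL and 5020 in WTKL, than in the lowest, 4082 and 3975.5. Since Retnlg chose the cells and made the classes, what follows is a description without a test.

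Mmp8 levels from the lowest to the highest Retnlg class were 96.4, 196, 861 and 1689 CPM in LYZKL and 116, 241, 708 and 1512 CPM in WTKL. Ly6g levels were 26.5, 73.2, 226 and 283 CPM in LYZKL and 28.4, 75.4, 284 and 353 CPM in WTKL. Both genes were higher in each class than in the one below it, in both libraries. Ccl3 ran the other way, at 4212, 1826, 486 and 134 CPM in LYZKL and 3025, 1194, 389 and 372 CPM in WTKL. Cd274, the PD-L1 gene, was at 1502, 891, 275 and 100.1 CPM in LYZKL and 1374, 735, 214 and 149.7 CPM in WTKL. The cells with at least 3 UMIs of Ngp and Camp were concentrated at the top, where they made up 64.0% of LYZKL and 35.9% of WTKL cells, against 3.67% and 1.11% in the lowest class. The Ngp level itself did not follow the classes evenly, because the highest Ngp cell of LYZKL had few Retnlg UMIs and lay in the lowest class, which stood at 1969 CPM.

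**Figure D4:**
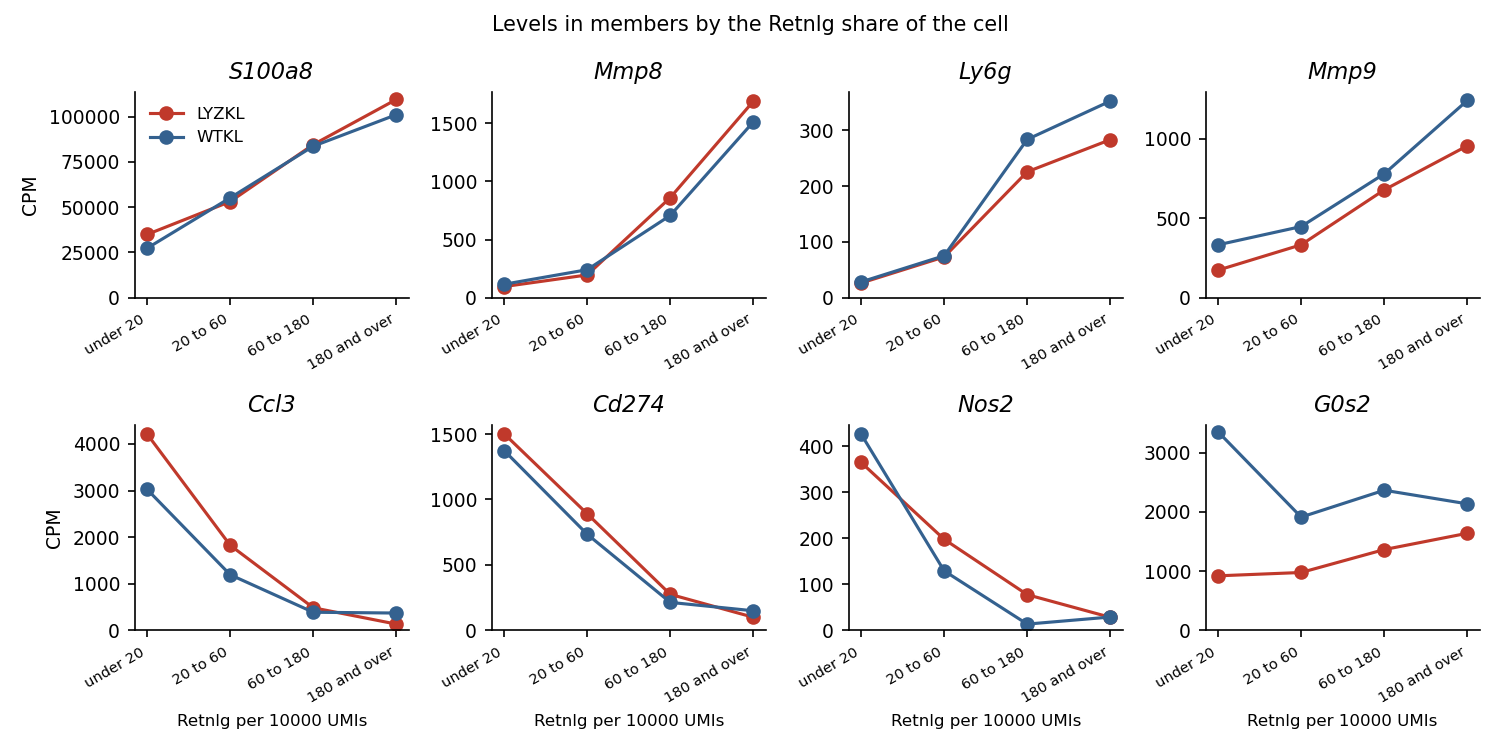
Level (y axis, CPM, linear from 0, a scale per panel) of 8 genes in granule-gene neutrophils (members) divided into 4 classes of Retnlg UMIs per 10000 UMIs (x axis, low to high), a point per class and library joined by lines, LYZKL in red and WTKL in blue, without error bars. Mmp8 and Ly6g are higher and Ccl3 and Cd274 lower towards the top class in both libraries, and G0s2 is lower in LYZKL in all 4 classes.

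Cells with at least 3 UMIs of Ngp and Camp were compared with cells that had none, within each library. Of 3552 genes with enough UMIs, 59 were at least 2-fold higher and 306 at least 2-fold lower in both. Higher were Ltf (379 CPM with Ngp or Camp against 7.12 CPM without in LYZKL, 278 against 6.56 CPM in WTKL), Mmp8 (1586 against 296 CPM, and 1568 against 276 CPM) and Serpinb1a. Ifitm6, an interferon-induced transmembrane protein, was at 3374 against 546 CPM in LYZKL and 3687 against 421 CPM in WTKL. Padi4, the enzyme that citrullinates histones in extracellular trap formation, Cd177, a surface partner of proteinase 3, Prok2, Ly6g and Anxa1 were higher as well. Lower in both were the interferon-response genes Gbp5 (71.3 against 496 CPM in LYZKL, 32.7 against 284 CPM in WTKL), Cxcl9 and Ifit2, the class II genes H2-Aa and H2-Ab1, and the adhesion molecule Icam1 (40.5 against 394 CPM, and 44.9 against 260 CPM). Single cells held much of some of these genes. Of all granule-gene neutrophils, the highest cell held 51.2% of H2-Aa UMIs in LYZKL and 30% in WTKL. For H2-Ab1 these shares were 48.0% and 39%, and for Cxcl9 25.9% and 51.4%. Other genes went opposite ways in the libraries. G0s2 was at 1536 against 1163 CPM in LYZKL and 1184 against 2902 CPM in WTKL, and Olfm4 at 103 against 51.3 CPM in LYZKL and 16.3 against 25.3 CPM in WTKL, where the 16.3 CPM rest on 4 UMIs. Median depth was 5823 UMIs in LYZKL and 6285 in WTKL with Ngp or Camp, and 4102 and 3886 without.

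Against the other gate cells, granule-gene neutrophils carried fewer macrophage-type transcripts, and 4 of 16 mature neutrophil genes were at least 2-fold higher and 0 lower in both libraries. Of 6621 genes with enough UMIs, 2.67% (177 genes) were at least 2-fold higher and 22.2% (1472 genes) at least 2-fold lower in granule-gene neutrophils in both libraries. As the rule divided these cells by granule genes, the differences are given without a test. Ly6g was at 159 CPM in LYZKL and 169 CPM in WTKL, against 1.62 and 2.83 CPM in the other gate cells. Prok2, a secreted chemoattractant, was 93.7-fold higher in LYZKL and 20.1-fold in WTKL, Padi4 17.8- and 11.2-fold, the glucose transporter Slc2a3 18.2- and 12.0-fold, and Pglyrp1, a bactericidal peptidoglycan recognition protein, 9.50- and 7.37-fold. The stefin genes Stfa1, Stfa2, Stfa2l1, Stfa3 and the related Cstdc5 were also among the 15 highest, though these are near-identical copies whose reads the counting may have divided. Ifitm6, Rdh12, Anxa1, Mrgpra2a and Fosl1 completed them. Stfa1 rose in LYZKL (999 CPM against 649 CPM in WTKL) and was slightly lower there (log2 ratio -0.17) when only cells with at least 3 UMIs of Ngp and Camp were compared.

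The 10 genes furthest below the other gate cells were mostly genes of macrophages and monocytes. Fn1, fibronectin, was at 10.4 CPM in LYZKL and 6.99 CPM in WTKL, against 280 and 213 CPM in the other gate cells. Ccr2, the monocyte chemokine receptor, with 7 UMIs in LYZKL and 2 in WTKL, Ms4a6c, Ms4a6d, the scavenger receptor Lrp1, the vasoconstrictor peptide gene Edn1, with 20 UMIs in LYZKL and 3 in WTKL, Scpep1, Acp5 and Dst were also among them. All of the 8 macrophage or monocyte markers that could be compared were at least 2-fold lower in granule-gene neutrophils in both libraries. Of 83 ribosomal protein genes 57, and of 12 mitochondrially coded genes 10, were also at least 2-fold lower in both. S100a8 and S100a9 enter the total by which every gene is scaled, and in the other gate cells they were at 11261 and 7650 CPM in LYZKL and 13863 and 13386 CPM in WTKL, several-fold below the levels given above for granule-gene neutrophils. Their part in the lower levels of the other genes was not tested.

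The other genes with the highest ratios in LYZKL have varied functions. Rab21, a small GTPase of endosomes, was at 67.6 CPM in LYZKL and 30.5 CPM in WTKL (log2 ratio 1.15, 0.68 to 1.64), in 141 and 46 cells, and was higher in all 4 Retnlg classes. Ccl2, the monocyte chemoattractant, was at 127 and 64.9 CPM (log2 ratio 0.97), Errfi1, an inhibitor of EGFR signalling, at 64.5 and 35.6 CPM, Smad4, the shared mediator of TGF-beta signalling, at 111 and 61.7 CPM, and Ahnak, a large scaffold protein, at 124 and 69.3 CPM in LYZKL and WTKL, and these 4 were also higher in all 4 classes. Rdh12, a retinol dehydrogenase, was at 138 CPM in LYZKL and 78.8 CPM in WTKL and was higher in 2 of the 4 classes. Ly6c2, a surface antigen shared with monocytes, was at 133 CPM in LYZKL and 75.0 CPM in WTKL (log2 ratio 0.82). It was higher in 2 of the 4 classes. It was lower in LYZKL (log2 ratio -0.28) when cells with at least 1 granule UMI were taken, and lower (-0.52) among cells with at least 3 UMIs of Ngp and Camp.

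G0s2, an inhibitor of the triglyceride lipase that releases fatty acids from lipid droplets, had the most UMIs of the 10 genes named for the lowest ratios. It was at 1233 CPM in LYZKL (1191 to 1277) and 2443 CPM in WTKL (2366 to 2522), a log2 ratio of -0.99 (-1.06 to -0.92). A G0s2 UMI was found in 60.2% of LYZKL and 69.5% of WTKL cells, and after thinning in 45.9% and 58.7%, against 1.01% and 2.90% of T cells. In the Retnlg classes from low to high it was at 920, 977, 1363 and 1638 CPM in LYZKL and 3350, 1911, 2364 and 2135 CPM in WTKL. So it was lower in LYZKL in each class, with log2 ratios of -1.86, -0.97, -0.80 and -0.38, and the gap was widest where Retnlg was lowest. In the other gate cells it was at 420 CPM in LYZKL and 2873 CPM in WTKL. Among cells with at least 3 UMIs of Ngp and Camp the direction was turned, with 1536 CPM in LYZKL and 1184 CPM in WTKL (log2 ratio 0.38).

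Other genes that fell included inflammatory mediators of tumour neutrophils. Ptgs2, the inducible cyclooxygenase of prostaglandin synthesis, was at 93.8 CPM in LYZKL and 209 CPM in WTKL (log2 ratio -1.15, -1.40 to -0.91), in 110 of 518 and 116 of 354 cells. It was lower in 3 of the 4 Retnlg classes, though higher in LYZKL (43.3 against 24.5 CPM, log2 ratio 0.82) among cells with at least 3 UMIs of Ngp and Camp. Jaml, an adhesion molecule of the junction family, was at 38.6 CPM in LYZKL and 97.9 CPM in WTKL (log2 ratio -1.34) and was lower in all 4 Retnlg classes. Mirt2, a long non-coding RNA induced by endotoxin, was at 108 CPM in LYZKL and 204 CPM in WTKL (log2 ratio -0.91) and was also lower in all 4. Slc15a2, a peptide transporter, fell by 0.83 and Egln3, an oxygen-sensing prolyl hydroxylase, fell by 0.76 on the log2 scale. Klf2, a transcription factor that restrains inflammatory genes, was at 666 CPM in LYZKL and 1003 CPM in WTKL (log2 ratio -0.59), and Spp1, osteopontin, at 16.6 and 36.2 CPM, both lower in all 4 classes.

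Single cells held a large part of the UMIs of some fallen genes, and for Ccl5 a single cell decided the value. Saa3, an acute-phase serum amyloid, was at 925 CPM in LYZKL and 2929 CPM in WTKL (log2 ratio -1.66), but 1 WTKL cell held 1858 of its 4606 UMIs and 1 LYZKL cell 602 of 2395. Without those cells the log2 ratio of Saa3 was -1.34. By Retnlg class, Saa3 was lower in LYZKL in the lowest class alone (2060 CPM in LYZKL, 10806 CPM in WTKL, log2 ratio -2.39) and higher in the other 3, with log2 ratios of 0.08, 2.48 and 1.01 from low to high. Ccl5, a chemokine of T cells and macrophages, was at 164 CPM in LYZKL and 333 CPM in WTKL (log2 ratio -1.02), and without its highest cells, of which the WTKL cell held 59.2% of the UMIs, the log2 ratio was -0.17 (-0.42 to 0.09). It was lower in LYZKL in 3 of the 4 Retnlg classes. Ccl5 was higher in LYZKL (0.58) when cells with a UMI of Trac, Trbc1 or Trbc2 were left out. Cxcl3, a ligand of Cxcr2, was at 184 CPM in LYZKL and 373 CPM in WTKL (log2 ratio -1.02, and -0.99 without its highest cells), and was lower in LYZKL in 2 of the 4 classes. Its direction turned with a threshold of 10 granule UMIs (0.11) and among cells with at least 3 UMIs of Ngp and Camp (2.77, with 55.9 CPM in LYZKL and 8.17 CPM in WTKL). Ifit2, an interferon-induced gene, was at 32.4 CPM in LYZKL and 69.9 CPM in WTKL, and 26 of its 110 WTKL UMIs lay in 1 cell. The log2 ratio of Ifit2 was -1.11, and -0.83 without its highest cells.

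**Figure D5:**
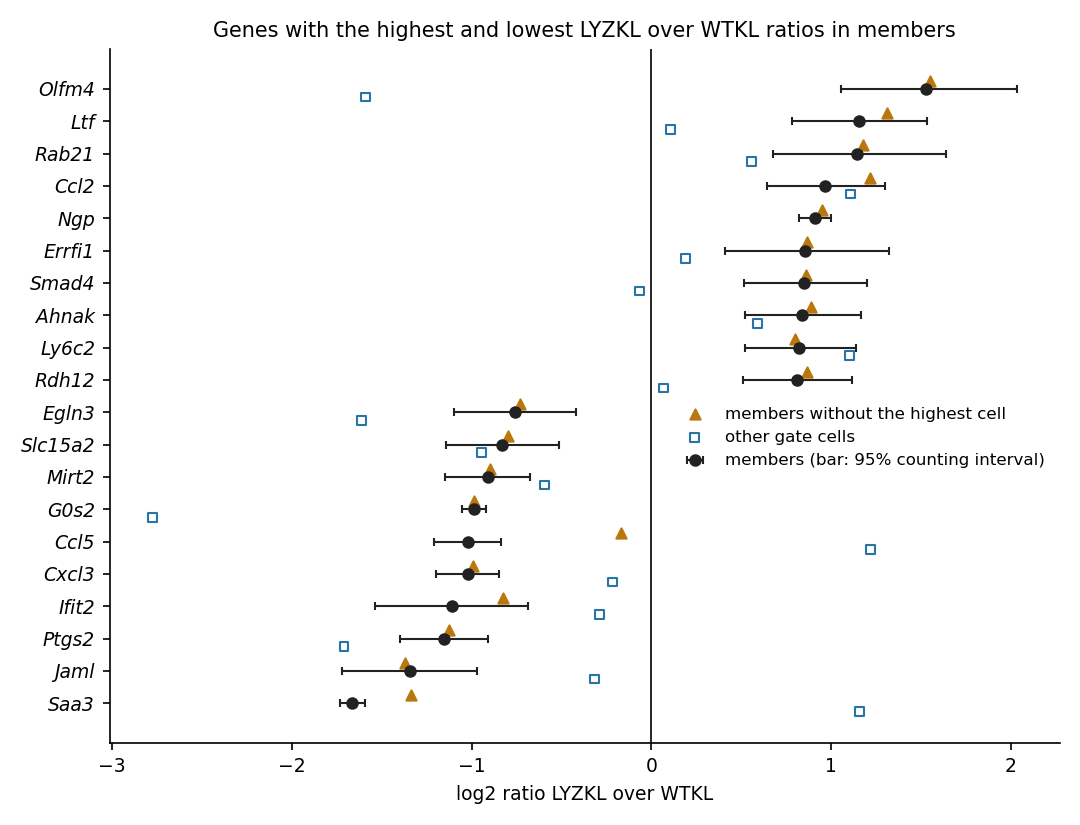
Log2 ratio of LYZKL over WTKL (x axis) for the 10 genes with the highest and the 10 with the lowest ratio (y axis): black circles with 95% counting intervals for granule-gene neutrophils (members), triangles for the same without the highest cell of each library, open squares for the other gate cells (not drawn for Ngp, which the rule used). Olfm4 (1.53) and Saa3 (-1.66) are the extremes, Ccl5 moves to -0.17 without its highest cells, and G0s2 is lower in LYZKL in both sets of cells.

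Tmem173, the floxed gene, was near the limit of detection in these cells. It had 11 UMIs in 11 LYZKL cells and 20 UMIs in 15 WTKL cells, or 4.25 CPM (2.12 to 7.60) and 12.7 CPM (7.77 to 19.6), a log2 ratio of -1.58 (-2.79 to -0.45). A Tmem173 UMI was found in 2.12% of LYZKL and 4.24% of WTKL granule-gene neutrophils, below the 25.1% and 15.9% of T cells, and the part of free RNA in these few UMIs was not tested. The floxed exons are not given in the sources used here and the 3' tags need not lie in them, so the value does not check the deletion. Tmem173 was lower in LYZKL under every alternative run. Of the 8 STING pathway genes with enough UMIs, 4 were higher and 4 lower, and 2 fell, against 4.84% of all genes tested. The 2 were Tmem173 and the DNA sensor cofactor Ddx41 (13.5 CPM in LYZKL, 26.7 CPM in WTKL). Cd38, the NAD-consuming ectoenzyme named in the series title, was at 54.4 CPM in LYZKL and 47.7 CPM in WTKL (log2 ratio 0.19, -0.22 to 0.61). Lyz2, whose locus drives the Cre, was at 796 and 700.1 CPM (log2 ratio 0.18), with 338 of its 2061 LYZKL UMIs in a single cell.

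The interferon lists held few changes of 1.5-fold, and the tumour neutrophil state list held 4 genes that fell. Of 24 type I interferon response genes 8 were higher and 16 lower in LYZKL, with 1 that rose (Ifit3b) and 1 that fell (Ifit2), and a median log2 ratio of -0.16. In the other gate cells the median of the same list was 0.34. Of 22 interferon gamma response genes 9 were higher and 13 lower, with 2 that rose (Iigp1 and Tgtp2) and 0 that fell, and a median of -0.02 against 0.43 in the other gate cells. The log2 intervals of Ifit3b (-0.20 to 2.52), Iigp1 (-0.38 to 1.92) and Tgtp2 (-0.11 to 1.86) all include 0. Of 21 tumour neutrophil state genes 9 were higher and 12 lower, with 0 that rose and 4 that fell, against 7.7% and 4.84% of all genes. The 4 were Cxcl3, Ptgs2, Spp1 and G0s2. Ccl3 (1507 CPM in LYZKL, 1273 in WTKL) and Cd274 (643 and 645 CPM) did not pass the size. Nos2 (156 and 151 CPM), which is not in that list, did not pass it either. The cytokine Il1b was at 7784 CPM in LYZKL and 8479 CPM in WTKL.

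Among survival and metabolic lists, few genes passed 1.5-fold, and some lists leaned to one direction. Over all genes tested, 54.1% were higher in LYZKL, 7.7% rose and 4.84% fell. Of 9 survival genes 5 were higher and 0 passed the size, with Mcl1, the short-lived survival factor of neutrophils, at 2544 CPM in LYZKL and 2450 CPM in WTKL. Of 9 pro-apoptotic genes 6 were higher and 2 rose, Bad (28.6 and 15.9 CPM) and Pmaip1 (40.5 and 26.7 CPM). Of 17 glycolysis and hypoxia genes 13 were lower and 1 fell, the phosphofructokinase gene Pfkp. Immediate early and heat shock genes, which react to tissue handling, were lower in LYZKL in 13 of 16 genes, with 0 past the size and a median log2 ratio of -0.20, and with a median of -0.53 in the other gate cells. Mitochondrially coded genes were lower in 9 of 11 and ribosomal protein genes in 48 of 83, each with 1 that fell, mt-Nd4l (16.2 CPM in LYZKL, 26.1 CPM in WTKL) among the mitochondrially coded genes. Of 8 genes of NAD and nucleotide enzymes 6 were higher and 1 fell, the ectonucleotidase Nt5e.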

How the data were processed

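Single cells from 2 libraries, LYZKL and WTKL, were counted with a droplet 3' kit. The deposited matrices hold raw UMI counts per gene and barcode, made with Cell Ranger 6.1.2 on mm10, per the submitters' processing notes. The aligner's settings and gene annotation are not given in the sources used here. Gene identifiers and barcodes were deposited beside them and carry no unit. The members and lists were chosen with earlier results of these data known.

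Barcodes with fewer than 500 genes (121 in LYZKL, 170 in WTKL) or over 10% mitochondrially coded UMIs (35 and 31) were removed. Doublets were kept. UMIs were summed over the members per library and scaled to CPM by their total. Intervals are exact Poisson for levels, Clopper-Pearson for shares, Katz for ratios of shares and exact conditional binomial for CPM ratios, and cover counting error only, at 95%. For ratios, 0 UMIs in a library counted as 3. The 34 gene lists lacked 2 symbols in the matrices. Thinning drew 1500 UMIs per cell.

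Named genes were the rule's genes with Tmem173, Cd38 and Lyz2, and the 10 highest and 10 lowest ratios of genes reaching 50 CPM in either library and 30 UMIs in all. Excluded were segments of T cell receptors and immunoglobulins, unnamed gene models, sex-linked genes, genes of ribosomal proteins and those coded in mitochondria. Added were list genes of at least 30 CPM and the 15 highest and 10 lowest genes against the other gate cells. Prss57, Ms4a3, Fcnb and the other genes below that level were named for their low counts, after their values were seen, and so were the genes named for cells with Ngp or Camp. Not every gene selected this way is reported here. Motif letters were searched on both strands. The sums and intervals were tested on simulated data. Python 3.11.15, numpy 2.4.6, scipy 1.17.1, scanpy 1.11.5, edgeR 4.0.16 (TMM factors only) and matplotlib 3.10.9 were used.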

Additional observations from a re-analysis of the deposited data

Results flagged for a closer look

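Olfm4, Saa3 and Ccl5 differed between LYZKL and WTKL in opposite directions in granule-gene neutrophils and in the other cells of the neutrophil gate, and the difference between those differences was not tested. Olfm4 had a log2 ratio of LYZKL over WTKL of 1.53 in granule-gene neutrophils and of -1.59 in the other gate cells. In LYZKL it was at 80.7 CPM in granule-gene neutrophils and 8.64 CPM in the other gate cells. In WTKL its levels in the 2 sets of cells were close, at 28.0 and 26.0 CPM. Saa3 had a log2 ratio of -1.66 in granule-gene neutrophils and 1.16 in the other gate cells, where it was at 11314 CPM in LYZKL and 5068 CPM in WTKL. Within granule-gene neutrophils it was lower in LYZKL in the lowest Retnlg class alone (-2.39) and higher in the other 3 (0.08, 2.48 and 1.01), the direction of the other gate cells. Ccl5 had a log2 ratio of -1.02 in granule-gene neutrophils and 1.22 in the other gate cells, but a single WTKL cell held 310 of its 524 UMIs. Without the highest cells the log2 ratio of Ccl5 was -0.17 (-0.42 to 0.09), and without cells with T cell receptor UMIs 0.58.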

How the results depend on the processing

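No paired analysis was possible because each group has 1 library. The shares and Tmem173 kept their direction under the alternatives run, and over the 8 main results 107 of 115 values stayed within counting error or within 1.5 times. Some alternatives could hardly move a value. With limits of 5% or 20% mitochondrially coded UMIs, the counts of genes that rose and fell stayed at exactly 483 and 304. Without cells that had a UMI of Trac, Trbc1 or Trbc2, the log2 ratio of the share among kept cells was 0.58 (3.18% in LYZKL, 2.12% in WTKL) in place of 0.38. The count of genes that rose (483) became 1145 with a minimum of 10 UMIs and 92 with 100. The count of genes that fell (304) became 790 and 56 with these minimums, and 188 among cells with at least 3 UMIs of Ngp and Camp. The count of genes lower than in the other gate cells (1472) became 923 with a threshold of 1 granule UMI and 887 with 30 UMIs of S100a8 and S100a9, settings applied to it after seeing the data. Of the genes past 1.5-fold, 61.4% were higher in LYZKL, against 49.3% with 1 granule UMI and 71.7% without each gene's highest cell, which was chosen after seeing the data.

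Of the values of named genes, 748 stayed, 148 moved and 10 changed sign. Among cells with at least 3 UMIs of Ngp and Camp, the log2 ratio of LYZKL over WTKL was -0.52 for Ly6c2, 0.82 for Ptgs2, 2.77 for Cxcl3, 0.38 for G0s2, -0.17 for Stfa1 and -0.81 for Edn1, where WTKL had 0 UMIs and counted as 3. With 1 granule UMI it was -0.28 for Ly6c2 and -2.31 for Ccr2, with 10 granule UMIs 0.11 for Cxcl3, and without T cell receptor UMIs 0.58 for Ccl5. The causes were not tested. Cells with the highest doublet scores were marked up to a preset rate of 0.8% per 1000 kept cells. They included 8 of the LYZKL and 10 of the WTKL granule-gene neutrophils, a number that depends on that rate. Automatic doublet calls were not used. Genes under about 30 UMIs are beyond this depth, and the spread between mice is unknown.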

Other observations

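Of 11 transcription factors of the neutrophil lineage with enough UMIs, 4 were higher and 7 lower in LYZKL, with 1 that rose (Cebpa) and 1 that fell (Klf2, with 666 CPM in LYZKL and 1003 CPM in WTKL). Cebpb, the C/EBP factor of emergency granulopoiesis, was at 6321 CPM in LYZKL and 6878 CPM in WTKL (log2 ratio -0.12), and Spi1, which codes for PU.1, at 899 and 1004 CPM (-0.16). Cebpa, a factor of early granulocyte progenitors, rose on few UMIs, with 32 in LYZKL and 10 in WTKL (12.3 and 6.36 CPM), and its interval of -0.10 to 2.15 on the log2 scale includes 0.

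The list counts below stand beside 54.1% higher, 7.7% that rose and 4.84% that fell over all genes tested. Of 18 recruitment and adhesion receptors, 7 were higher and 11 lower in LYZKL and 0 passed 1.5-fold. Cxcr4, the receptor that rises as neutrophils age, was at 130.1 CPM in LYZKL and 146 CPM in WTKL, C5ar1, the receptor of complement C5a, at 922 and 1108 CPM, and the formyl peptide receptor Fpr1 at 248 and 307 CPM (log2 ratio -0.31). Of 9 suppressive and arginine genes, Ptges, a prostaglandin E synthase, fell (10.8 CPM in LYZKL, 19.1 CPM in WTKL), while Arg2 stood at 655 and 651 CPM. A single WTKL cell held 26.7% of the Ptges UMIs of that library. Without the highest cells the log2 ratio of Ptges was -0.48 (-1.35 to 0.41), under the 1.5-fold size. Of 12 inflammatory cytokine genes, Ccl9 rose on few UMIs (14.7 and 8.90 CPM) and Cxcl3 fell. Of 8 antigen presentation genes 6 were lower in LYZKL and 0 passed 1.5-fold.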
